A study of Mus musculus with 6 samples.

Results

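The genes described here are 9 mouse genes of the 2-cell-like state and its activators: Zscan4c, Zscan4d, Zscan4f, Tcstv1, Tcstv3, Zfp352, Usp17la, Dppa2, and Dppa4. They were chosen from 52636 genes by symbol, with the differences between the genotypes already known, so that their values are a description, and no p-value is given for them. The 7 genes from Zscan4c to Usp17la are transcribed in the 2-cell state itself, and Dppa2 and Dppa4 encode activators of that state.

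RNA was sequenced from embryoid bodies (EBs), aggregates in which embryonic stem cells (ESCs) begin to differentiate. The WT EBs came from the parental mouse ESC line E14, and the Tnfaip2-/- EBs from a single CRISPR/Cas9 clone of this line with a premature stop codon in exon 2 of Tnfaip2. Cells of both genotypes were held in hanging drops for 3 days and then differentiated on gelatin for 3 days in medium without leukemia inhibitory factor, and 3 replicates per genotype were sequenced. Since each genotype is 1 line, the spread between replicates is that between cultures. An effect of the genotype cannot be told apart from another property of the clone. In well-counted genes, squared differences between samples of a genotype were 1.36 to 1.95 times those that counting error alone gives. The standard errors and p-values below rest on this small spread.

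The mouse embryo starts its own transcription at the 2-cell stage, with a burst of genes that are silent soon afterwards. In ESC cultures a small and changing fraction of cells passes through a state in which the same genes are transcribed, which is known as the 2-cell-like state. DPPA2 and DPPA4, which bind DNA as a pair, activate Dux, and the transcription factor DUX in turn activates Zscan4, Tcstv, Usp17l, and Zfp352 genes.

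The counts summed to 22987433, 22489903, and 23804489 in the WT EBs and to 22480962, 21765931, and 21986960 in the Tnfaip2-/- EBs. They are given below as counts or as counts per 1000000 counts (CPM), scaled by edgeR's TMM method. A floor of 3 counts, below which a gene is not told apart from absence in a sample, corresponds to 0.133 CPM. Intervals and floors cover counting error only. The targeted gene, Tnfaip2, had 7, 4, and 7 counts in WT EBs and 0, 2, and 2 in Tnfaip2-/- EBs. The Tnfaip2-/- samples were all at or under the floor and all below the WT samples. The gene did not pass edgeR's expression filter, and without this filter its log2 fold change was -2.05 (SE 0.695; edgeR quasi-likelihood test, adjusted p = 0.0133).

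Zscan4c, Zscan4d, and Zscan4f encode nuclear proteins with a SCAN domain and zinc fingers that act in telomere maintenance. They lie in a cluster of 9 copies that spans 819871 bases of chromosome 7 (chr7:10794242-11614112, GRCm38). Zscan4c lies at chr7:11005745-11010547 on the plus strand, Zscan4d at chr7:11161374-11166159 on the minus strand, and Zscan4f at chr7:11397915-11402318 on the plus strand. Their coding sequences are 1518 bases long, with 99.6% identity between Zscan4c and Zscan4f and 97.7% identity of Zscan4d to each of them. The authors counted uniquely mapped reads of 51 bases, so that a read counts for a copy only where its sequence is found nowhere else. The first 51 coding bases are the same in all 3 genes and occur in 9 annotated genes, and a read of exactly this window is not unique. Coding bases 1041 to 1091 hold the most differences between the 3 genes within such a window. They are shown from the GENCODE transcripts of GRCm38, 5′ to 3′, with the 6 positions that differ between the 3 genes in capitals.
First 51 coding bases: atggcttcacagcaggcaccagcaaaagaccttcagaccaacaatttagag
Zscan4c: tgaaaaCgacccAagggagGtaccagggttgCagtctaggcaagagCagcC
Zscan4d: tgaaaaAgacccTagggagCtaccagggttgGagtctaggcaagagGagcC
Zscan4f: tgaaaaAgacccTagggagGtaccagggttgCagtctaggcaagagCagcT
The Zscan4c and the Zscan4d form of this window each occur in 1 annotated gene and the Zscan4f form in 3 genes, so that Zscan4f cannot be told from other copies even here. Over all exons, 85.3% of the 51-base windows of Zscan4c, 86.6% of those of Zscan4f, and 49.1% of those of Zscan4d also occur in another annotated gene. The counts of these genes are therefore lower than their RNA, and the levels of single copies are uncertain.

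The promoters of these copies are nearly the same as well. RefSeq promoter sequences (GRCm38.p6, 250 bases before to 50 bases after the annotated start) were found for 5 of the 9 genes: Zscan4c, Zscan4d, Zscan4f, Zfp352, and Usp17la. The Zscan4 promoters are shown because these copies moved together, with that of Usp17la as another gene of the 2-cell state on chromosome 7, and capitals mark TATAAA, the letters of the TATA box. They cover chr7:11005495-11005794 on the plus strand (Zscan4c), chr7:11166099-11166398 on the minus strand (Zscan4d), chr7:11397665-11397964 on the plus strand (Zscan4f), and chr7:104856766-104857065 on the plus strand (Usp17la).
Zscan4c: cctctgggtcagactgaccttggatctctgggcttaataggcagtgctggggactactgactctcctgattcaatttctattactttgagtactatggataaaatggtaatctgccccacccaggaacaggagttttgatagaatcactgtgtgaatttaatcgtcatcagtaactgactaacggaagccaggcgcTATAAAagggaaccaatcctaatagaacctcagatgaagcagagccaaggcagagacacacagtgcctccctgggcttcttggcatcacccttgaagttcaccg
Zscan4d: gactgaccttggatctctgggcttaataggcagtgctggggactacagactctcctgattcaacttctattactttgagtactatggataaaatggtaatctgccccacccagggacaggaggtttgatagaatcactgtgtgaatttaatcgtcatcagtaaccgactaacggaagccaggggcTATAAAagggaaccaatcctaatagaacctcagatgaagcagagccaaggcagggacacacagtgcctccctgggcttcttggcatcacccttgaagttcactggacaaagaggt
Zscan4f: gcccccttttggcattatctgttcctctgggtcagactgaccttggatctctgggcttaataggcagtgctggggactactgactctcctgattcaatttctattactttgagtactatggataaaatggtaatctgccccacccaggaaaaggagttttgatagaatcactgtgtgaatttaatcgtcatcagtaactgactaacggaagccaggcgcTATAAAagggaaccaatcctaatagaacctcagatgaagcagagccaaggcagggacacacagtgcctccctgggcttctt
Usp17la: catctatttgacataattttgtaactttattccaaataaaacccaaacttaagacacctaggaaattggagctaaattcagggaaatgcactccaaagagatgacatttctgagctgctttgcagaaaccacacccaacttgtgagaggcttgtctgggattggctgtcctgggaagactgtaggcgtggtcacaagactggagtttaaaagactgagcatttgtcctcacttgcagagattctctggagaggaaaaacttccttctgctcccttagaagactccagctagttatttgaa
Where they align, the Zscan4c and Zscan4f promoters were 99.3% identical, and that of Zscan4d was 97.2% identical to Zscan4c and 97.4% to Zscan4f. Each of the 3 holds TATAAA once, on the strand of the gene, 54 bases before the annotated start of Zscan4c, 65 before that of Zscan4d, and 31 before that of Zscan4f. The starts are thus annotated at different places in the same sequence. On either strand, 13.6% of all 32851 promoters hold TATAAA, and the windows of Usp17la and Zfp352 do not. TGCACAC, a motif bound by ZSCAN4, is in none of the 5 windows and in 4.40% of all promoters.

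Zscan4c had 28, 25, and 28 counts in WT EBs and 165, 165, and 171 in Tnfaip2-/- EBs. Zscan4d had 19, 28, and 26 counts in WT EBs versus 110, 121, and 126 in the Tnfaip2-/- EBs. Zscan4f had 30, 32, and 22 counts in WT EBs versus 185, 185, and 170 in the Tnfaip2-/- EBs. For each of the 3 genes, all Tnfaip2-/- samples were above all WT samples, and the samples of a genotype lay close together. Zscan4c went from 1.18 ± 0.0602 to 7.50 ± 0.226 CPM (SD, n = 3), and its log2 fold change was 2.66 (standard error, SE, 0.143). Zscan4d went from 1.07 ± 0.209 to 5.35 ± 0.447 CPM, and its log2 fold change was 2.32 (SE 0.164). Zscan4f went from 1.23 ± 0.259 to 8.08 ± 0.394 CPM, and its log2 fold change was 2.72 (SE 0.144). The ratio of summed counts, scaled for depth, was 6.35 for Zscan4c, 5.02 for Zscan4d, and 6.60 for Zscan4f, and the exact 95% intervals of these ratios (5.01 to 8.13, 3.89 to 6.55, and 5.23 to 8.40) overlap. In bulk RNA, more cells in the 2-cell-like state and more RNA per such cell cannot be told apart.

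**Figure D1:**
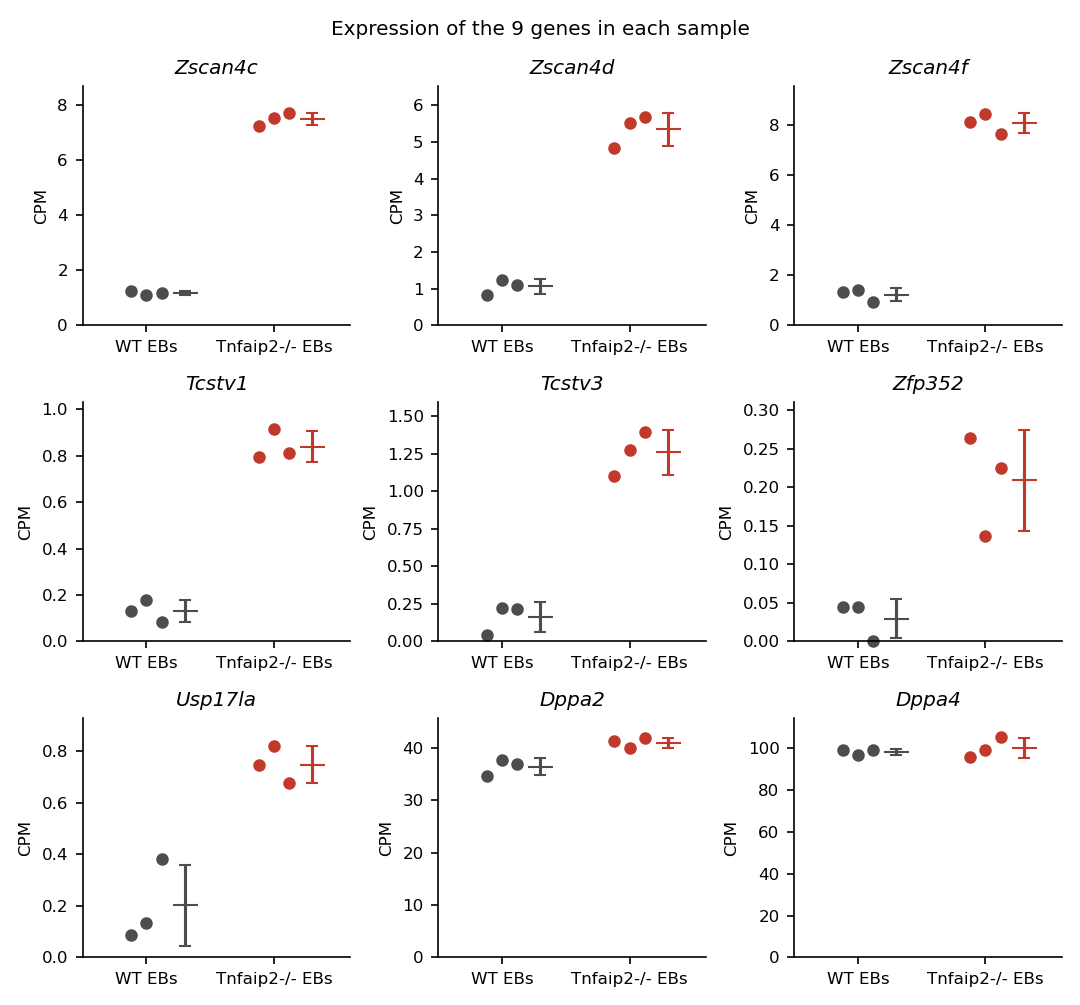
CPM of each of the 9 genes (y axes, linear and starting at 0, with a scale of their own) in the 3 WT EB samples (grey points) and the 3 Tnfaip2-/- EB samples (red points), with the mean ± SD beside them. The 7 genes of the 2-cell state are higher in every Tnfaip2-/- sample than in every WT sample, Dppa2 is slightly higher, and the groups of Dppa4 overlap.

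Tcstv1 and Tcstv3, 2-cell-stage genes linked to telomere length, lie on chromosome 13 (chr13:119893388-119894785, minus strand, and chr13:120316878-120318178, plus strand). Tcstv1 had 3, 4, and 2 counts in WT EBs and 18, 20, and 18 in Tnfaip2-/- EBs. Tcstv3 had 1, 5, and 5 counts in WT EBs and 25, 28, and 31 in Tnfaip2-/- EBs. The WT samples of both genes were near the floor, and the groups did not overlap. The ratio of the counts in Tnfaip2-/- EBs to those in WT EBs, scaled for depth, was 6.39 for Tcstv1, with an exact 95% interval from 3.13 to 14.7. For Tcstv3 it was 7.84, with an interval from 4.16 to 16.3. The fitted log2 fold changes were 2.62 (SE 0.412) and 2.93 (SE 0.368).

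Usp17la, a gene of the USP17-like deubiquitinases, lies at chr7:104857009-104862667 on the plus strand, far from the Zscan4 cluster. It had 2, 3, and 9 counts in WT EBs and 17, 18, and 15 in Tnfaip2-/- EBs. The groups did not overlap, but WT replicate 3 was well above the other WT samples. The ratio of counts was 3.66 (exact 95% interval 1.99 to 7.18), and the fitted log2 fold change was 1.85 (SE 0.401). The log2 fold change was 2.68 without WT replicate 3, 1.49 without WT replicate 1, and 1.62 without WT replicate 2.

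Zfp352, a zinc finger gene of the early embryo, lies at chr4:90218820-90225702 on the plus strand. It had 1, 1, and 0 counts in WT EBs and 6, 3, and 5 in Tnfaip2-/- EBs. All WT samples were under the floor, the Tnfaip2-/- samples were at or just above it, and the gene did not pass the expression filter. The ratio of counts was 7.18, and its exact 95% interval, from 1.65 to 65.1, covers the ratios of the Zscan4 and Tcstv genes and of Usp17la. On the log2 scale this ratio was 2.84, and it was 2.24 without WT replicate 3, the sample at 0.

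Dppa2 and Dppa4 encode paired proteins with a SAP domain that keep the promoters of developmental genes open in ESCs. They are neighbours on the plus strand of chromosome 16, Dppa4 at chr16:48283733-48294237 and Dppa2 at chr16:48303908-48319723, and together span 35991 bases. Dppa2 had 783, 842, and 869 counts in WT EBs and 937, 874, and 927 in Tnfaip2-/- EBs. In CPM this was 34.5, 37.6, and 37.0 in WT EBs and 41.2, 39.9, and 41.8 in Tnfaip2-/- EBs. The groups did not overlap, but their distance was small. Dppa2 went from 36.4 ± 1.62 to 41.0 ± 0.973 CPM (SD, n = 3), and its log2 fold change was 0.17 (SE 0.0462). The fold was 1.13, with an approximate 95% interval from 1.06 to 1.20.

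Dppa4 had 2246, 2164, and 2327 counts in WT EBs and 2178, 2164, and 2336 in Tnfaip2-/- EBs. The WT samples were at 98.3 ± 1.40 CPM (SD, n = 3) and the Tnfaip2-/- samples at 95.9, 98.8, and 105.3, with Tnfaip2-/- replicate 1 below and Tnfaip2-/- replicate 3 above all WT samples. The fold was 1.02, with an approximate 95% interval from 0.971 to 1.07. At this depth a difference of the size seen in the Zscan4 genes would lie far outside this interval. The log2 fold change was 0.02, and it was -0.02 without Tnfaip2-/- replicate 3. Of the 51-base windows, 28.9% in Dppa2 and 30.7% in Dppa4 also occur in other genes, most often in Gm9788 and Gm14058.

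Of the 9 genes, 8 passed the expression filter and Zfp352 did not. Tcstv1, Tcstv3, and Usp17la passed it through the Tnfaip2-/- EBs, since their WT counts were all below 10, so that they had to differ to be tested. Among the 8 genes that passed, edgeR called 7 higher in Tnfaip2-/- EBs at an adjusted p below 0.05, where 34.0% of all 17849 tested genes were, and Dppa4 was not called. Called genes with at least 4-fold higher values made up 5 of the 8, where they made up 2.22% of all tested genes. The groups did not overlap for 8 of the 9 genes, the untested Zfp352 among them, with Tnfaip2-/- EBs higher. Among all tested genes, this held for 34.9%. Nothing is read from these shares, because the genes were chosen on this difference.

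The genes differed widely in level. In CPM per 1000 exon bases, Dppa4 was at 59.1 ± 0.845 in the WT EBs and Dppa2 at 14.9 ± 0.660, both above all other genes of the 9. Next came Zscan4f at 0.628, Zscan4c at 0.519, and Zscan4d at 0.469 CPM per 1000 bases, whose WT samples overlapped from each gene to the next. Tcstv3 at 0.205, Tcstv1 at 0.0945, and Usp17la at 0.0760 likewise overlapped from gene to gene, and Zfp352 was lowest at 0.0130. In the Tnfaip2-/- EBs the order per exon base was the same, and no gene overlapped with the next. There the levels were 60.2 for Dppa4 and 16.7 for Dppa2, then 4.13 for Zscan4f, 3.30 for Zscan4c, 2.35 for Zscan4d, and 1.62 for Tcstv3. Tcstv1 was at 0.600, Usp17la at 0.282, and Zfp352 at 0.0918 CPM per 1000 bases. The order, and that of the Zscan4 copies in particular, rests on which parts of each gene can be counted. Per 1000 windows that no other annotated gene holds, Zscan4f had 30.9 CPM, Zscan4c 22.9 CPM, and Zscan4d 4.73 CPM in the Tnfaip2-/- EBs, so that the distance of Zscan4d from the other copies grew. On this scale Dppa2 had 24.0 CPM in the Tnfaip2-/- EBs and lay below Zscan4f. In the WT EBs Dppa2 stayed above, at 21.3 CPM versus 4.69 CPM for Zscan4f. The counts did not follow the number of such windows, however. In the Tnfaip2-/- EBs, Zscan4b had 5.70 CPM with 184 of them and Zscan4d 5.35 CPM with 1131. The scale thus raises copies with few such windows, and its order need not be that of the RNA.

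The remaining 6 copies of the Zscan4 family rose as well. Zscan4a, Zscan4b, Zscan4e, Zscan4-ps1, Zscan4-ps2, and Zscan4-ps3 had log2 fold changes between 2.35 and 2.63. Zscan4-ps2, with 23, 21, and 34 counts in WT EBs and 175, 142, and 156 in Tnfaip2-/- EBs, had the largest of these (2.63, standard error 0.154, edgeR quasi-likelihood test, adjusted p = 5.35e-20). Summed over all 9 copies, which does not depend on how the counted reads were split among them, there were 212, 209, and 225 counts in WT EBs and 1231, 1221, and 1203 in Tnfaip2-/- EBs. The samples of a genotype were almost equal in this sum, at 9.42 ± 0.135 CPM in the WT EBs and 54.7 ± 0.889 CPM in the Tnfaip2-/- EBs (SD, n = 3). The ratio was 5.81, with an exact 95% interval from 5.34 to 6.32. No copy took over the family. The share of a copy in the summed counts moved most for Zscan4f, by 1.77 percentage points from 13.0% to 14.8%.

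**Figure D2:**
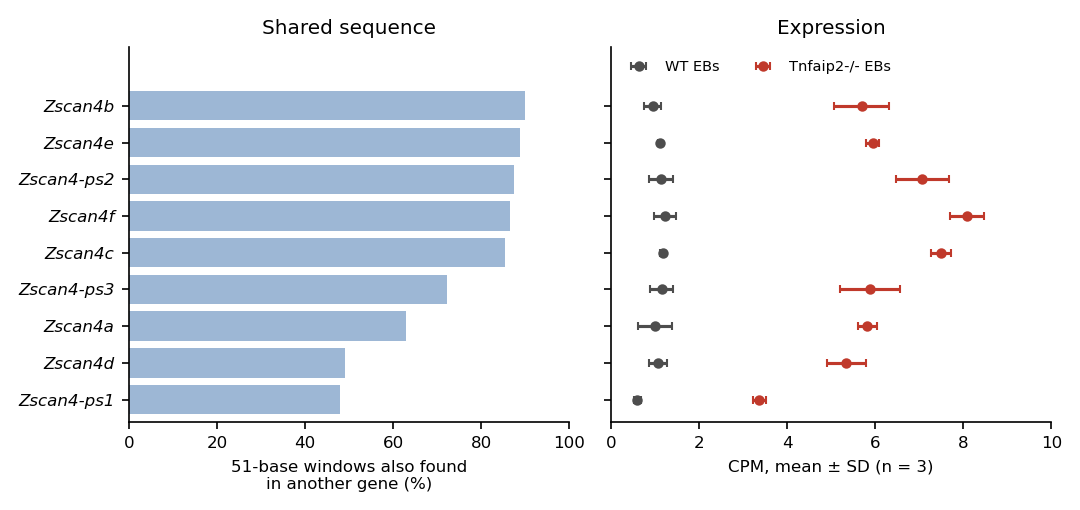
For the 9 Zscan4 copies (rows, the same in both panels), the left panel gives the percentage of 51-base windows that also occur in another gene, and the right panel the CPM in WT EBs (grey) and Tnfaip2-/- EBs (red), as mean ± SD of 3 samples. The shared percentage runs from 47.8 for Zscan4-ps1 to 89.8 for Zscan4b, and every copy is higher in the Tnfaip2-/- EBs.

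The Usp17l genes were all higher as well. Their 5 copies had 15, 19, and 17 counts in WT EBs and 106, 96, and 100 in Tnfaip2-/- EBs when summed, a ratio of 6.07 (exact 95% interval 4.50 to 8.35). Usp17la, with the ratio of 3.66 given above, was the lowest of the 5, and Usp17lb was the highest, with 2, 3, and 1 counts in WT EBs and 19, 18, and 21 in Tnfaip2-/- EBs. The place of Usp17la is uncertain. Its log2 fold change ran from 1.49 without WT replicate 1 to 2.68 without WT replicate 3. That of Usp17le was 2.55 with all samples and 2.44 to 2.73 over the alternatives. The ratio of Usp17lb was 9.92, and its exact 95% interval, from 4.29 to 28.1, overlaps that of Usp17la. Tcstv1 and Tcstv3 together had 4, 9, and 7 counts in WT EBs and 43, 48, and 49 in Tnfaip2-/- EBs, a ratio of 7.18 (exact 95% interval 4.48 to 12.1). Between the 3 families these intervals overlap.

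Beyond the 9 genes, a list of 44 further genes of the 2-cell state was compared, which includes the copies just described. This list and the lists of activators, repressors, targets, and markers below were chosen with earlier results of these data known. Their shares and medians are therefore a description, and nothing is read from them. Of these, 40 were found in the table, 36 had a count, and 26 passed the filter, 8 of them, Tmem92 and 4 Usp17l genes included, only through the Tnfaip2-/- EBs, so that these had to differ to be tested. Of the 26 genes tested, 23 were higher in Tnfaip2-/- EBs (34.0% of all tested genes), 1 was lower (33.7%), and 2 were not called. Their median log2 fold change was 2.57, where that of all tested genes was 0.00297, and 19 of the 26 rose at least 4-fold (2.22% of all tested genes). The largest increase was that of Tmem92, which encodes a transmembrane protein and shares 1.90% of its windows with other genes. It had 7, 8, and 10 counts in WT EBs and 88, 110, and 109 in Tnfaip2-/- EBs. Its log2 fold change was 3.64 (SE 0.221; edgeR quasi-likelihood test, adjusted p = 2.29e-19). Usp17lb followed, and then Gm21761, with 22, 24, and 25 counts in WT EBs versus 227, 208, and 200 in the Tnfaip2-/- EBs (log2 fold change 3.19, adjusted p = 1.12e-24). Gm20767, on the same chromosome 13 as Gm21761, followed at 3.14 on the log2 scale (adjusted p = 1.28e-19), and 62.8% of the windows of Gm21761 are shared with Gm20767.

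Another 7 genes in this list, Gm8300, Gm2022, Gm2016, Gm2035, Gm4027, Gm5662, and Gm16368, lie on chromosome 12 and each share windows with 20 other genes. Of these, 6 rose, with log2 fold changes from 1.11 for Gm2035 to 2.73 for Gm5662, and Gm16368 was not called. Gm5662 had 19, 23, and 20 counts in WT EBs and 139, 129, and 135 in Tnfaip2-/- EBs. Gm2035, with 15, 15, and 25 versus 45, 31, and 40 counts, rose least among the genes of the list called higher (edgeR quasi-likelihood test, adjusted p = 5.7e-05). In each Tnfaip2-/- sample, both were above all WT samples. The groups of Gm16368 overlapped, with 29, 28, and 39 counts in WT EBs and 31, 38, and 32 in Tnfaip2-/- EBs (log2 fold change 0.11, standard error 0.207). Between 26.0% and 96.6% of the windows of these 7 genes are shared with other genes, and single copies are uncertain here too.

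Gm7102 was the lower gene of the list, with 66, 55, and 56 counts in WT EBs and 32, 36, and 52 in Tnfaip2-/- EBs (log2 fold change -0.52, edgeR quasi-likelihood test, adjusted p = 0.00955). This call was lost with DESeq2 and also without WT replicate 1 or without Tnfaip2-/- replicate 1, with adjusted p-values up to 0.0924. Sp110 had 13, 10, and 12 versus 14, 9, and 12 counts and was not called. Tdpoz1, Tdpoz2, Tdpoz5, and D5Ertd577e had 0 counts in all 6 samples, but all windows of Tdpoz5 and 77.0% of those of D5Ertd577e are shared with other genes, so that their RNA may go uncounted. Spz1 had 0 counts in every WT sample and 3, 3, and 2 in the Tnfaip2-/- EBs, and both groups were at or under the floor. Abcb5 likewise had 0, 0, and 1 versus 3, 3, and 3 counts. In both of these genes, which did not pass the filter, all Tnfaip2-/- samples were above all WT samples. In CPM the same held for Pramef6 and B020004J07Rik, also untested and at or under the floor of counts. The highest WT and the lowest Tnfaip2-/- sample of Pramef6 both had 1 count and differed only by the scaling for depth. The groups of Tdpoz3, Tdpoz4, Pramef25, AF067063, E330034G19Rik, and Ubtfl1, which were not tested either, overlapped.

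**Figure D3:**
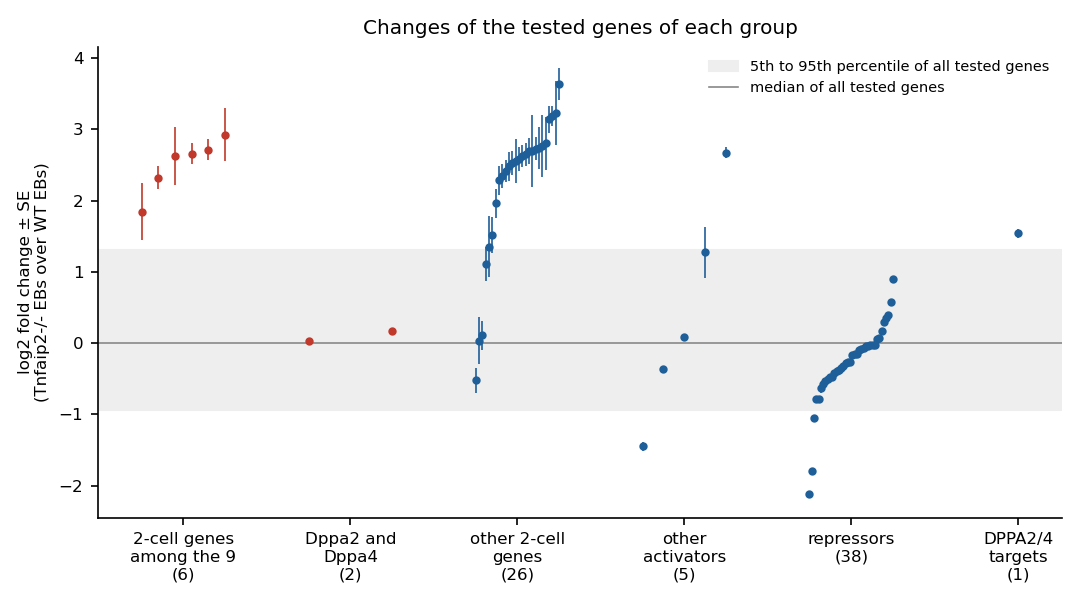
Log2 fold change ± standard error of each tested gene (points; y axis, Tnfaip2-/- EBs over WT EBs) in 6 groups (x axis, with the number of tested genes), with the genes among the 9 in red. The grey band spans the 5th to the 95th percentile of all tested genes (-0.94 to 1.31) and the line is their median; the 2-cell genes among the 9 and most of the other 2-cell genes lie above the band, and Dppa2 and Dppa4 lie within it.

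Since DPPA2 and DPPA4 act through other genes, further activators of the state were compared. Dux itself is annotated as Duxf3, and the symbol Dux was not matched to another gene. Duxf3 had 2, 0, and 2 counts in WT EBs and 14, 10, and 9 in Tnfaip2-/- EBs. All WT samples were under the floor, and the gene did not pass the filter. The ratio of counts was 8.47, with an exact 95% interval from 3.01 to 32.9, and 46.4% of its windows are shared with other genes. Dppa3, also known as Stella, a maternal factor that protects the methylation of the early embryo, had 104, 96, and 110 counts in WT EBs and 667, 645, and 614 in Tnfaip2-/- EBs. Its log2 fold change, 2.67 (adjusted p = 8.41e-32), was within the range of the Zscan4 copies (2.32 to 2.72).

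The other activators moved in both directions. Gata2, a GATA transcription factor, had 5, 10, and 6 counts in WT EBs and 13, 19, and 18 in Tnfaip2-/- EBs, and its log2 fold change was 1.27 (SE 0.357; edgeR quasi-likelihood test, adjusted p = 0.0017). It passed the filter only through the Tnfaip2-/- EBs and so had to differ to be tested. Tbx3, a T-box factor of ESC self-renewal, had 742, 755, and 761 counts in WT EBs and 285, 259, and 261 in Tnfaip2-/- EBs. It fell by 1.45 on the log2 scale (SE 0.0598; edgeR quasi-likelihood test, adjusted p = 1.03e-25). Nelfa, a subunit of the negative elongation factor, was also lower in all Tnfaip2-/- samples, with 91.1 ± 1.52 versus 70.9 ± 1.27 CPM (log2 fold change -0.36, adjusted p = 8.71e-13). Trp53, which encodes p53, had a log2 fold change of 0.09 (adjusted p = 0.00498). Its groups overlapped, and its call was lost without the filter and without WT replicate 3, Tnfaip2-/- replicate 2, or Tnfaip2-/- replicate 3, with adjusted p-values up to 0.0974. Of the 5 activators tested, 3 were thus higher (34.0% of all tested genes) and 2 lower (33.7%), with a median log2 fold change of 0.09.

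Genes known to restrain the 2-cell-like state were mostly lower. Of 38 repressors, all tested, 25 were lower in Tnfaip2-/- EBs (33.7% of all tested genes), 7 were higher (34.0%), and 6 were not called. Their median log2 fold change was -0.22, where that of all tested genes was 0.00297, and most changes were smaller than those of the 2-cell genes. The 2 largest decreases were in enzymes of DNA methylation. Dnmt3a, a de novo DNA methyltransferase, had 14564, 14583, and 14778 counts in WT EBs and 3296, 3159, and 3384 in Tnfaip2-/- EBs. It fell by 2.12 on the log2 scale (SE 0.0271; edgeR quasi-likelihood test, adjusted p = 8.45e-46). Dnmt3b, with 13515, 13447, and 14060 versus 4047, 3732, and 3770 counts, fell by 1.79 (adjusted p = 7.77e-44). Lin28a, an RNA-binding protein gene, fell by 1.05 (adjusted p = 2.84e-34), and Uhrf1, the cofactor of maintenance methylation, fell by 0.79 (adjusted p = 1.53e-30). In all of these, each Tnfaip2-/- sample was below each WT sample. Dnmt1, which maintains methylation, was lower by little, at -0.08 on the log2 scale (adjusted p = 0.00778), and this call was lost when total counts were used without TMM factors (adjusted p = 0.0896).

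The subunits of the chromatin complexes in this list did not move as one. Among the genes for histone H3K9 methylation and its partners, Setdb1 (log2 fold change -0.31), Ehmt1 (-0.41), and Ehmt2 (-0.51) were lower, and Trim28, the corepressor that recruits SETDB1, was higher (0.16). The adjusted p-values of these genes were 9.13e-13, 3.1e-15, 1.25e-18, and 8.75e-09 in edgeR's quasi-likelihood test. Both large subunits of the histone chaperone CAF-1, Chaf1a and Chaf1b, were lower, at -0.34 (adjusted p = 3.78e-12) and -0.28 (adjusted p = 3.43e-11) on the log2 scale. Of the histone chaperone pair Atrx and Daxx, Atrx was higher (0.40) and Daxx lower (-0.78), with adjusted p-values of 3.56e-17 and 1.15e-22. The largest increases were those of Zfp42, which encodes REX1 (0.90, adjusted p = 1.95e-31), and of Rif1, a telomere-associated factor (0.58, adjusted p = 1.8e-23). Atrx and Morc3 followed, the latter at 0.36 on the log2 scale (adjusted p = 1.15e-14). Ncl, Smchd1, Zmym2, Mga, Rnf2, and Uba2 were not called, with log2 fold changes from -0.04 to 0.06. The calls of Ythdc1, Sae1, and Hdac1, all with log2 fold changes within 0.1 of 0, were each lost under at least 1 alternative. Rnf2 was called with total counts only and without WT replicate 2, and Uba2 without the filter and without WT replicate 2.

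**Figure D4:**
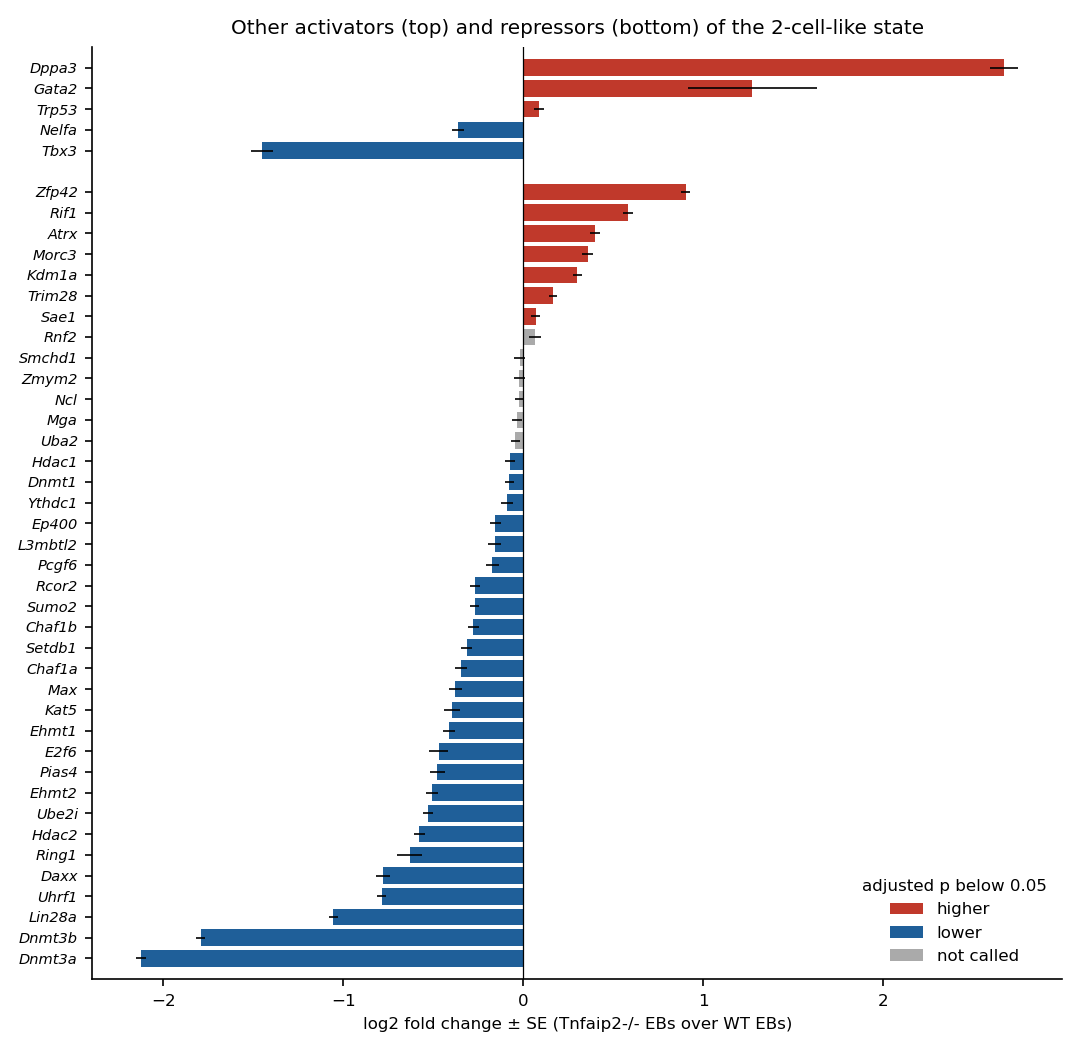
Log2 fold change ± standard error (x axis, Tnfaip2-/- EBs over WT EBs) of the 5 tested activators (top) and the 38 repressors (bottom), 1 gene per row, with bars in red for genes called higher, blue for genes called lower, and grey for genes not called by edgeR at an adjusted p below 0.05. Dppa3 at 2.67 and Dnmt3a at -2.12 are the ends of the range.

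Of 2 genes whose promoters DPPA2 and DPPA4 are known to act on, Syce1, a gene of the synaptonemal complex, had 230, 206, and 240 counts in WT EBs and 637, 630, and 653 in Tnfaip2-/- EBs. It rose in all 3 Tnfaip2-/- samples, with a log2 fold change of 1.54 (SE 0.0649; edgeR quasi-likelihood test, adjusted p = 2.28e-25). The cardiac gene Nkx2-5 had 1, 3, and 2 versus 4, 2, and 3 counts and was not tested.

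The position of the genes was compared with that of their neighbours. On both sides of the Zscan4 cluster, the nearest 3 protein-coding genes, Vmn1r70, Nlrp4b, and Vmn1r71 on one side and Vmn1r72, Vmn1r73, and Vmn1r74 on the other, had 0 counts in all 6 samples. The nearest of them, Vmn1r71, is 39878 bases from the cluster. Around Dppa2 and Dppa4, Gm5485 and Trat1 had 1 count in 1 sample each, and Cd96 had 1, 4, and 2 versus 0, 1, and 0 counts. Morc1, 111514 bases away, was lower in Tnfaip2-/- EBs, with 493, 505, and 548 versus 453, 425, and 429 counts (log2 fold change -0.20, edgeR quasi-likelihood test, adjusted p = 0.00194). Gm4737 and Nectin3, on the other side at least 1785208 bases away, were at -0.37 (adjusted p = 9.28e-17) and at -0.14 on the log2 scale (adjusted p = 0.00406, with groups that overlap). The 3 tested neighbours of Dppa2 and Dppa4 thus had the opposite sign to Dppa2, where 33.7% of all tested genes were called lower.

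Over the 6 samples, the genes with the profile most like that of Zscan4f were Tap1, Psmd3, and Atp11a (Pearson r of log2 CPM 0.9999, 0.9997, and 0.9997). Those most like Dppa2 were Stac3, Mapk9, and BC004004 (0.9998, 0.9982, and 0.9977). These correlations join 2 groups of 3 samples and mainly reflect the distance between the groups. A correlation over 0.95 was reached by 2993 genes with Zscan4f and by 396 genes with Dppa2.

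Markers of the cells in the EBs moved with the genotype, and their part in the differences above was not tested. Against the called genes counted below stand 34.0% higher and 33.7% lower among all tested genes. The summed level of 8 pluripotency genes was 2960, 2901, and 2980 CPM in the WT EBs and 2598, 2613, and 2596 CPM in the Tnfaip2-/- EBs, with 4 genes higher and 4 lower and Dppa5a as the most abundant. The 5 genes of the primitive streak and mesendoderm, led by T in WT EBs and by Eomes in Tnfaip2-/- EBs, were all lower and summed to 87.1, 87.2, and 86.3 versus 20.5, 18.0, and 21.6 CPM. Of these, T, Mixl1, and Gsc passed the filter only through the WT EBs and so had to be lower to be tested. The 3 neural genes, led by Sox1, were also all lower, with 101.7, 102.4, and 95.1 versus 46.5, 44.8, and 45.8 CPM in sum. The 4 endoderm genes, led by Gata4, summed to 17.6, 19.3, and 18.1 versus 16.8, 18.0, and 19.5 CPM, with 1 higher and 1 lower. The 3 trophoblast genes, led by Krt7 in the Tnfaip2-/- EBs, summed to 2.16 ± 0.273 versus 1.53 ± 0.104 CPM, with Krt7 higher, which passed the filter only through the Tnfaip2-/- EBs, and Cdx2 lower, which passed it only through the WT EBs. The 6 fibroblast genes, led by Thy1, summed to 12.2 ± 1.36 versus 7.90 ± 0.784 CPM, with 3 of 5 tested genes lower and Postn at 0 in all Tnfaip2-/- samples. Of these 3 genes, Col1a2 and Col3a1 passed the filter only through the WT EBs.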

How the data were processed

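RNA of EBs was sequenced in 6 samples, 3 WT and 3 Tnfaip2-/-, grouped by the genotype in their labels. The authors trimmed the 51-base reads, mapped them to GRCm38 with TopHat2 2.1.0, counted uniquely mapped reads per gene of Ensembl release 90 with featureCounts 1.5.0, and deposited these counts without normalization. The library kit (TruSeq RNA v2) keeps no strand, and how strands were treated in counting is not stated. Totals were between 21765931 and 23804489 counts per sample. All 6 columns were used, and 52489 of 52636 identifiers matched the GENCODE annotation.

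The analysis used R 4.3.3 and edgeR 4.0.16 (TMM, expression filter at count 10 and total 15, robust quasi-likelihood test, Benjamini-Hochberg adjustment over 17849 genes, threshold 0.05). Standard errors derive from the test statistic and are approximate. The fit was first tested on simulated data. Count ratios of weakly expressed genes carry exact Clopper-Pearson 95% intervals on the split of the counts. Shared windows are distinct 51-base stretches of annotated transcripts that also occur, on either strand, in transcripts of another gene. Mismatches, unannotated copies, and differences between annotations are not covered, and Gm6763 had 0 windows of its own yet up to 45 counts. Promoters are from RefSeq.

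The members and the gene lists were chosen with earlier results of these data known. The lists were other genes of the 2-cell state, activators, repressors, DPPA2 and DPPA4 targets, and markers of pluripotent, primitive streak, neural, endoderm, trophoblast, and fibroblast cells. Named genes were the 9 members, Tnfaip2, and every gene of a list of up to 7 other than the marker lists. From longer lists came the called genes that rose most (4) and fell most (4), and genes with at least 10 counts in every sample of a group whose groups did not overlap. The 3 genes most correlated with Dppa2 and with the most abundant 2-cell member, and the nearest 3 protein-coding genes on each side of both loci, were also named. Of the marker lists, only the most abundant genes, those that passed the filter through a single genotype, and Postn were named. Genes outside this rule, those not called or at or near 0, were named after their values were seen. The alternatives were RLE normalization, total counts, no filter or a stricter filter (1 CPM in 3 samples), DESeq2 1.42.0, a replicate block, a test against a fold change of 1.5, leaving out each sample, and sums over family copies.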

Additional observations from a re-analysis of the deposited data

How the results depend on the processing

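Of 213 alternative values, 202 stayed within 1.5 times the main count or, for a fold change, within the spread of the replicates. Among these, the log2 fold change of Dppa4 changed sign, to -0.02, without Tnfaip2-/- replicate 3. Against a fold change of 1.5, 1615 of all tested genes were higher and 1183 lower, of the other activators 1 was higher and 1 lower, of the repressors 1 was higher and 5 lower, and of the other 2-cell genes 0 were lower, as this test asks for a larger change. The single lower gene among the other 2-cell genes, Gm7102, was not called with DESeq2 (0 lower genes), and leaving out single samples gave 0 to 1 lower genes; the cause was not tested. Zscan4c had a log2 fold change of 2.54 with the sum of the family copies in place of the single copy. In a fit that took the replicate number for a block, 5937 genes were higher and 5904 lower, with 23 higher and 1 lower of the other 2-cell genes. No pairing by number was seen, since deviations of same-numbered samples correlated at -0.058, -0.051, and -0.063. Those of differently numbered samples correlated at 0.021 to 0.038. Deviations this close to counting error could hide a pairing. Depth limits Zfp352, Duxf3, Tcstv1, Tcstv3, and Usp17la, whose WT counts were below 10 in every sample.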
